A study of Mus musculus with 8 samples.

Results

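Estrogen receptors, a membrane estrogen receptor, classical estrogen-induced genes and the orphan relatives of the estrogen receptors were followed in mouse distal colon after tamoxifen. The set held 8 genes chosen by symbol (Esr1, Esr2, Gper1, Pgr, Greb1, Esrra, Esrrb and Esrrg), and all 8 had a row among the 52143 genes of the deposited table. Esr1 entered because its level differed between the genotypes in these same samples, so its values are given as a description with no test. The other 7 genes were named for their relation to Esr1, to ask whether they followed it.

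Both genotypes carried Villin1-Cre-ERT, a Cre recombinase fused to an estrogen receptor sequence and driven by the promoter of the villin gene in the epithelium of villi and crypts. The 4 control samples had only this transgene, and the 4 SIGLEC12-Villin1-Cre-ERT samples (called SiglecXII) also had 1 floxed copy of human SIGLEC12 in the ROSA26 locus, which Cre switches on. Mice were females given tamoxifen from 8 weeks of age. Every mouse of either genotype received tamoxifen, itself a ligand of estrogen receptors, for 5 days as a 10 mg/ml solution, and was sacrificed 7 days after the last dose, on day 12. No sample without tamoxifen was analysed here. RNA came from distal colon in bulk, so that fewer cells of a type and less RNA per cell cannot be told apart. The design text speaks of 3 mice per condition where the labels list 4 samples in each group. The Methods speak of 3 technical replicate libraries per sample, and no label ties a sample to an animal. Samples of a group may thus share an animal, and SDs and p-values measure only the spread between these samples, which may be technical.

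Estrogen receptors α (Esr1) and β (Esr2) are nuclear receptors that bind estrogens, dimerize on DNA at inverted repeats of the motif GGTCA and recruit coactivators. Gper1 is a G protein–coupled receptor that mediates rapid responses to estrogen at membranes. Pgr, the progesterone receptor, and Greb1, a cofactor of the receptor, are textbook targets of estrogen receptor α in uterus and breast. The estrogen-related receptors α, β and γ (Esrra, Esrrb and Esrrg) resemble the estrogen receptors in sequence but bind no estrogen, and Esrra and Esrrg drive mitochondrial energy metabolism together with the coactivator PGC-1α. In the intestine, Esr2 is known as the main estrogen receptor of the epithelium, whereas Esr1 is known from stromal and muscle cells.

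Values are TPM, the share of a gene in a library after correction for transcript length, scaled to a sum of 1000000, and differences are SiglecXII minus control on the log2(TPM + 1) scale, which understates the change of low genes. The files hold no read depth, so no counting error can be given, and only the spread between samples measures the precision. Each sample had 12748 to 13715 genes that reached 1 TPM. A gene was tested where 4 or more samples reached 1 TPM, which held for 13164 genes. Their median difference was -0.15 log2 units, and 78.1% of them had a difference below 0. With limma, 5 of these genes (0.038%) passed an adjusted p of 0.05, all higher in SiglecXII samples. At an unadjusted p of 0.05 or less there were 1167 genes (8.87%), of which 157 (1.19% of those tested) were higher and 1010 (7.67%) lower in SiglecXII samples, and 5.11% had groups that were wholly apart. Of the 8 members, 4 passed the filter (Esr1, Esr2, Esrra and Esrrg) and 4 did not (Gper1, Pgr, Greb1 and Esrrb).

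Samples also differed in what tissue they held. The 4 markers of stratified squamous epithelium (Krt5, Krt13, Krt14 and Trp63), a tissue that lines the anal canal and not the colon, summed to 13246 TPM in control 1, 6508 in control 4 and 3429 in SiglecXII 2, and to between 417 and 1068 in the other 5 samples. The 8 markers of colon epithelium were present in every sample, at 7486 to 10918 TPM in controls and 8342 to 10869 in SiglecXII samples. The members and the pathway lists are therefore also given without control 1, control 4 and SiglecXII 2, a choice made after seeing the data.

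Esr1 was the member that differed most. It stood at 4.49, 2.22, 1.05 and 3.12 TPM in controls 1 to 4 and at 25.4, 26.6, 17.8 and 23.2 TPM in SiglecXII samples 1 to 4. The groups did not overlap, as in 1.05% of all genes tested in this direction, and the lowest SiglecXII sample was 3.97 times the highest control. The mean level was 2.72 ± 1.45 TPM in controls and 23.2 ± 3.90 TPM in SiglecXII samples (SD, n = 4 each), a ratio of 8.54. On the log2(TPM + 1) scale the level went from 1.81 ± 0.60 to 4.58 ± 0.25 (SD, n = 4 each), a difference of 2.78, which ranked 3 in size among genes with a higher value in SiglecXII samples. Controls spread more widely than SiglecXII samples on this scale, with control 3 lowest and control 1 highest.

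**Figure D1:**
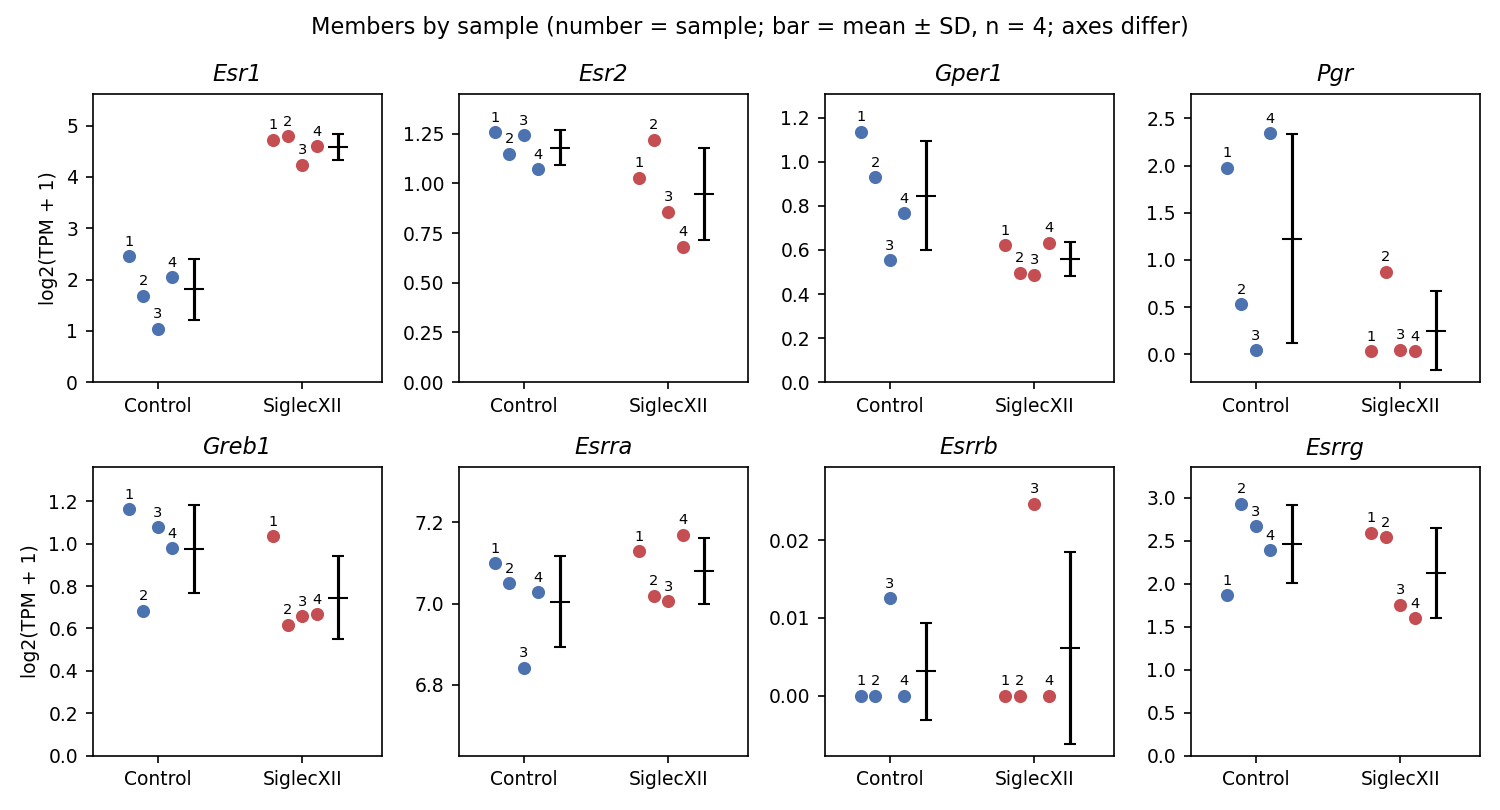
Level of each of the 8 genes in log2(TPM + 1) (y axes, which differ between panels) by genotype (x axis). Points are samples with their numbers, and bars give the mean ± SD (n = 4). The groups are apart only in Esr1, which was chosen for its difference. Pgr is high in controls 1 and 4 and, among SiglecXII samples, in sample 2.

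Esr1 (ENSMUSG00000019768) lies on the plus strand of chromosome 10 of GRCm38 from 4611593 to 5005614 and has 10 annotated transcripts in GENCODE M21. Of the 13678 distinct windows of 31 bases in these transcripts, 93 (0.68%) also occur in transcripts of another gene, and no other annotated gene has an exon that overlaps its exons. The transgene was not analysed here, and the deposited values do not separate estrogen receptor sequence of Cre-ERT from Esr1. Vil1, the gene whose promoter drives Cre-ERT, was at 164, 255, 280 and 213 TPM in controls 1 to 4 and at 274, 261, 166 and 156 TPM in SiglecXII samples 1 to 4. Those groups overlapped.

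The sequences around the starts of Esr1, and of the target genes Pgr and Greb1, are shown because they are where a reader would look first for an estrogen response element. They come from RefSeq on GRCm38.p6, cover 250 bases before to 50 after an annotated start, and are written 5′ to 3′ on the strand of the gene, with each GGTCA or its reverse complement TGACC in capitals. The Esr1 windows are chr10:4611739-4612038 and chr10:4709908-4710207 on the plus strand, that of Pgr is chr9:8899583-8899882 on the plus strand and the upstream one of Greb1 is chr12:16800837-16801136 on the minus strand.
Esr1, upstream start: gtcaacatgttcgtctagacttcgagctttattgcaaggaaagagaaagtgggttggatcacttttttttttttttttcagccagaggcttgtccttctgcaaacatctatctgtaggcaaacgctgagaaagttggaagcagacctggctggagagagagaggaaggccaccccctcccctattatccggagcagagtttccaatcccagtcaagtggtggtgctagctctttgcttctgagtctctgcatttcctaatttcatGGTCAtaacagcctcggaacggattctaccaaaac
Esr1, downstream start: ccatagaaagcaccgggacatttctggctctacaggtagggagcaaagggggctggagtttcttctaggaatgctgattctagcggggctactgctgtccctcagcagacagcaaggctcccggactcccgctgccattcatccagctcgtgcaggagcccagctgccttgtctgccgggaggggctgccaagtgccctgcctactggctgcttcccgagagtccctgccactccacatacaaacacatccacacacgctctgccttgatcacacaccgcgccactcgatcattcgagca
Pgr: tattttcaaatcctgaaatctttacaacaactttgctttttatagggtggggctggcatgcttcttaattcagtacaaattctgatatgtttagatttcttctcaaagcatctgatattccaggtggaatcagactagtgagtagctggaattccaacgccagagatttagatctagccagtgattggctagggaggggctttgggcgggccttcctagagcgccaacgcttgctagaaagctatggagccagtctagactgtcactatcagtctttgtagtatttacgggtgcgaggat
Greb1, upstream start: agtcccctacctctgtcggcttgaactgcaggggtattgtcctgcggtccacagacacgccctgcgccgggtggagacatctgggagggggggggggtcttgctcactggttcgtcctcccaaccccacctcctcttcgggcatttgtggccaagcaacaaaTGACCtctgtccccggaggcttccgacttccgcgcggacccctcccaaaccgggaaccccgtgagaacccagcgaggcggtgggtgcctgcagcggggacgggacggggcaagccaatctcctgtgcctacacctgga

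The upstream Esr1 window and the upstream Greb1 window each held 1 core motif, and the downstream Esr1 window and the Pgr window held 0. The other Greb1 window, not shown, held 2. The set of 8 genes has 14 such windows, of which 6 held at least 1 core motif, against 40.5% of all 32851 windows. The full inverted repeat GGTCANNNTGACC, which contains the core motif on both strands, was in 0 of the 14 and in 23 (0.07%) of all windows. The extended motif TCAAGGTCA of the estrogen-related receptors, searched on both strands and also containing the core motif, was in 0 of the 14 and in 139 (0.423%) of all windows. These matches describe letters in windows of 300 bases and say nothing of binding.

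Esr2, the other nuclear estrogen receptor, did not pass the test. It was at 1.39, 1.22, 1.37 and 1.10 TPM in controls 1 to 4 and at 1.04, 1.33, 0.812 and 0.604 TPM in SiglecXII samples 1 to 4. The groups overlapped, with SiglecXII samples 3 and 4 below every control. The log2 difference was -0.23 with a 95% interval from -0.57 to 0.10 (limma adjusted p = 0.522). It was -0.020 after median centring, -0.092 after quantile normalization and -0.14 without SiglecXII 4. In controls Esr1 and Esr2 were within a few TPM of each other, with control 3 having less Esr1 than Esr2, whereas in SiglecXII samples Esr1 was at 23.2 TPM and Esr2 at 0.947 TPM on average.

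Gper1, the membrane receptor, was low throughout and did not pass the filter. The fit with no filter, used for the 4 members below it, held 31352 genes, of which 0.00957% passed the adjusted p and 6.52% the unadjusted p (1.17% higher and 5.35% lower in SiglecXII samples), and 3.65% had groups that were apart. Gper1 stood at 1.20, 0.905, 0.467 and 0.701 TPM in controls and at 0.539, 0.411, 0.401 and 0.55 TPM in SiglecXII samples 1 to 4. Control 3 lay among the SiglecXII samples and the other 3 controls above them. In the fit with no filter, its log2 difference was -0.29 (95% interval -0.60 to 0.03, limma adjusted p = 0.682).

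Pgr, a standard readout of estrogen receptor α activity, was not higher in SiglecXII samples. It was at 2.94, 0.444, 0.032 and 4.07 TPM in controls 1 to 4 and at 0.0223, 0.833, 0.0351 and 0.0247 TPM in SiglecXII samples 1 to 4. The high values thus belonged to 2 controls, and 3 of 4 SiglecXII samples were as low as control 3. The log2 difference was -0.98 with a 95% interval from -2.21 to 0.25 in the fit with no filter (limma adjusted p = 0.682), so it did not exceed the spread between samples. The 3 samples with the most Pgr (controls 4 and 1 and SiglecXII 2) were also the 3 with the most squamous epithelium markers. Without these samples the difference was -0.25 (limma adjusted p = 0.638), against -0.98 with them. Krt14, a keratin of basal squamous cells, stood at 5670 TPM in control 1, 3250 in control 4, 1650 in SiglecXII 2 and from 120 to 276 elsewhere.

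Esr1 was also read against these markers. Within each group the order of the samples by Esr1 was their order by squamous markers, from control 1 through controls 4, 2 and 3 and from SiglecXII 2 through SiglecXII 1, 4 and 3. SiglecXII 1, 3 and 4 had 875, 417 and 503 TPM of squamous markers and 25.4, 17.8 and 23.2 TPM of Esr1. Controls 2 and 3 had 1068 and 746 TPM of the markers and 2.22 and 1.05 TPM of Esr1. Between these samples, left without controls 1 and 4 and SiglecXII 2, the Esr1 difference was 3.15. All 4 squamous markers had a lower mean in SiglecXII samples, with sums from 746 to 13246 TPM in controls and from 417 to 3429 TPM in SiglecXII samples, and 0 of 4 passed the test. What part squamous cells had in the Pgr and Esr1 values was not tested.

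**Figure D2:**
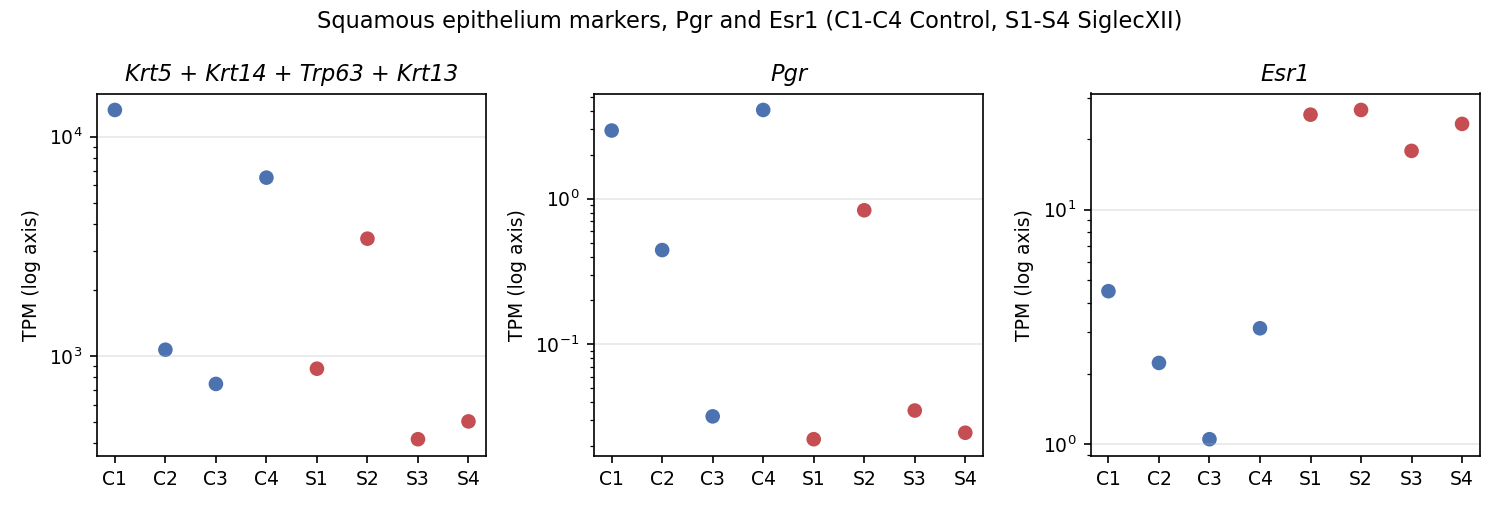
TPM on a log axis (y) in controls 1 to 4 (C1 to C4, blue) and SiglecXII samples 1 to 4 (S1 to S4, red) for the sum of 4 squamous epithelium markers, for Pgr and for Esr1. Control 1, control 4 and SiglecXII 2 are highest in the markers and in Pgr, whereas Esr1 is above 17 TPM in every SiglecXII sample and below 5 TPM in every control.

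Markers of most other cell types had lower means in SiglecXII samples. On the log2 scale, 78.1% of all genes tested were also lower. The 6 smooth muscle markers all had a lower mean in SiglecXII samples (sums of 623 to 1003 TPM in controls and 303 to 651 TPM in SiglecXII samples). Of these 6, 0 passed the test and 3 were lower at an unadjusted p of 0.05 or less, against 7.67% of all genes tested. Wholly apart and lower were 2, against 4.06% of all genes tested, and the median difference was -0.69 against -0.15. The 7 fibroblast markers summed to 15.7 to 50.7 TPM in controls and 21.5 to 77.1 TPM in SiglecXII samples, and 1 of them, Dcn, had a higher mean in the latter, through 57.1 TPM in SiglecXII 4. Leukocyte markers (6 of 6 with a lower mean) summed to 3.44 to 11.9 TPM in controls and 2.56 to 3.39 TPM in SiglecXII samples, and endothelium markers (6 of 6) to 6.96 to 9.28 and 5.09 to 6.77 TPM. Adipocyte markers (4 of 4 lower) summed to 5.02 to 30.8 and 4.64 to 14.2 TPM, pacemaker cell markers (3 of 3) to 102 to 199 and 110 to 192 TPM, and enteric neuron and glia markers (6 of 6) to 4.60 to 9.89 and 3.83 to 4.99 TPM. Most of the pacemaker sum was Ano1, at 96.9 to 191 TPM in controls and 105 to 185 TPM in SiglecXII samples. Kit was at 4.78 to 9.61 and 4.84 to 7.12 TPM. Ano1 and the epithelial gene Vil1 were both lowest in control 1 and SiglecXII 3 and 4. Female reproductive tract markers, 2 of 6 with a higher mean in SiglecXII samples, summed to 5.98 to 10.1 and 5.49 to 7.49 TPM. Within this list Wnt7a, Ovgp1 and Muc16 were at most 0.08, 0.24 and 0.64 TPM, and Wnt7a was listed at 0 in SiglecXII 4. Pax8 was at 2.51 to 6.97 TPM and Hoxa11 at 1.73 to 2.58 TPM over all samples. Emx2 was at 3.05, 0.672, 0.0259 and 0.989 TPM in controls 1 to 4. In SiglecXII samples 1 to 4 it was at 0.037, 0.717, 0 and 0.0255 TPM. Controls 1 and 4 and SiglecXII 2 were thus highest in Emx2, as they were in Pgr, and the part of such tissue was not tested. Mesothelium markers, all 4 with a higher mean in SiglecXII samples, summed to 20.5 TPM in SiglecXII 4 and to at most 2.83 TPM elsewhere. Of these, Wt1 was listed at 0 in control 3 and SiglecXII 1 and 2. SiglecXII 1, with 0.147 TPM of mesothelium markers, had 25.4 TPM of Esr1, and SiglecXII 4 had 23.2 TPM. What part mesothelium had in the Esr1 values was not tested. Adjusted p was above 0.05 in limma for every marker tested in these lists.

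Greb1, which estrogen receptor α induces and then binds, did not follow Esr1 either. It was at 1.24, 0.607, 1.11 and 0.972 TPM in controls 1 to 4 and at 1.05, 0.535, 0.578 and 0.588 TPM in SiglecXII samples 1 to 4. Control 2 lay just above the 3 low SiglecXII samples, and SiglecXII 1 lay among the other 3 controls. The log2 difference was -0.23 (95% interval -0.59 to 0.12, limma adjusted p = 0.691 in the fit with no filter). Exons of Gm48140 overlap those of Greb1, and 6.74% of the 31-base windows of Greb1 are shared with another gene, so its value is less certain.

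Esrra, the estrogen-related receptor of energy metabolism, was the most abundant member by far in TPM. It ranged from 114 TPM in control 3 to 136 TPM in control 1 and from 128 TPM in SiglecXII 3 to 143 TPM in SiglecXII 4. Its log2 difference was 0.08 with a 95% interval from -0.12 to 0.27 (limma adjusted p = 0.676). The spread was small in both groups (7.00 ± 0.11 in controls and 7.08 ± 0.08 in SiglecXII samples, log2(TPM + 1), SD, n = 4 each). Exons of Trmt112 and Mir6990 overlap those of Esrra, and 3.47% of its windows are shared with another gene.

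Esrrg was much lower than Esrra, at 2.65, 6.64, 5.36 and 4.24 TPM in controls 1 to 4 and at 5.05, 4.84, 2.39 and 2.03 TPM in SiglecXII samples 1 to 4. SiglecXII 3 and 4 and control 1 were the low samples, and the groups overlapped. The log2 difference was -0.34 (95% interval -1.02 to 0.34, limma adjusted p = 0.602). Without the 3 samples rich in squamous markers the difference was -0.82, the adjusted p being 0.491 in limma. It lay between -0.54 and -0.16 when single samples were left out, and was -0.13 after median centring and -0.12 after quantile normalization. Esrrb, a receptor of embryonic stem cells, was listed at 0 in 6 of the 8 samples and at no more than 0.0173 TPM in the others, so it gives no information on the groups.

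**Figure D3:**
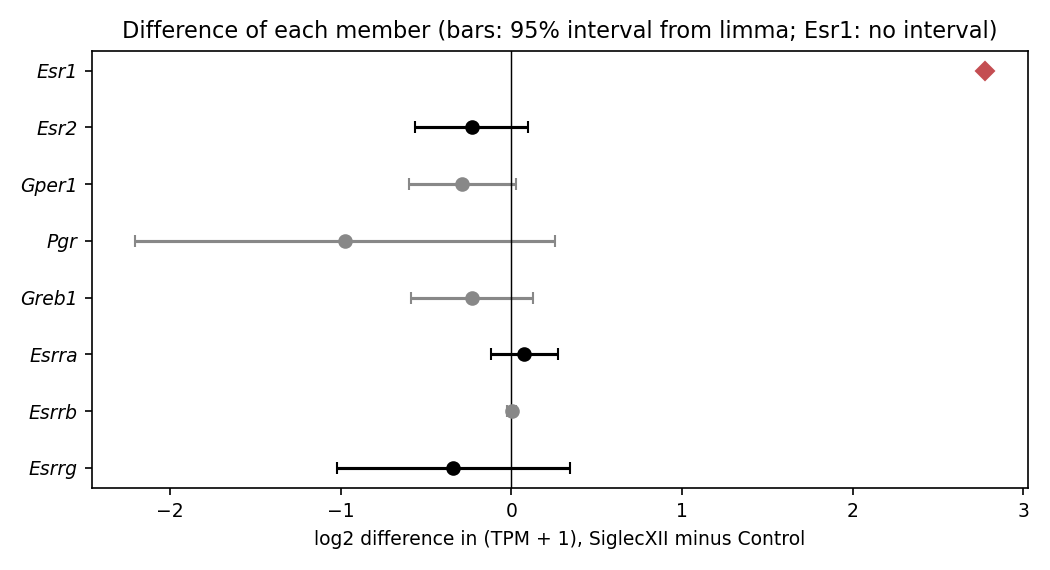
Log2 difference in TPM + 1, SiglecXII minus control (x axis), for each member (y axis). Bars are 95% intervals from limma for the genes tested (black) and, for members below the filter, from the fit with no filter (grey). Esr1, at 2.78, is shown without an interval because it was chosen for its difference, and every other interval includes 0.

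On GRCm38, Esr2 lies on chromosome 12 from 76120419 to 76177259 and Greb1 on the same chromosome from 16670615 to 16800886, both on the minus strand. Esrrb lies there too, on the plus strand from 86361117 to 86521628. Gper1 lies on chromosome 5 from 139423151 to 139427800, Pgr on chromosome 9 from 8899833 to 8968611 and Esrrg on chromosome 1 from 187608791 to 188214885, all on the plus strand, and Esrra on chromosome 19, minus strand, between 6910977 and 6921813. No 2 of the 8 genes overlap.

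None of the 7 other members passed an adjusted p of 0.05 in limma, in the fit that applied to each or in any alternative. At an unadjusted p of 0.05 or less there were 0 of 7. Over all genes tested, 0.038% passed the adjusted and 8.87% the unadjusted p. In the fit with no filter these shares were 0.00957% and 6.52%. At such shares, 0 of 7 does not set these genes apart from others. The differences of the 7 members were below 0 in 5 genes and above 0 in Esrra and Esrrb. Of all genes tested, 78.1% were below 0. Without controls 1 and 4 and SiglecXII 2, the differences were -0.34 for Esr2, -0.16 for Gper1, -0.094 for Greb1 and 0.16 for Esrra. In TPM, the order of the members in controls was Esrra, Esrrg, Esr1, Pgr, Esr2, Greb1, Gper1 and Esrrb, and the ranges of neighbors in this order overlapped except for Esrra against Esrrg and Gper1 against Esrrb. In SiglecXII samples Esr1 moved to the second place, apart from both of its neighbors Esrra and Esrrg, and the others followed as Esrrg, Esr2, Greb1, Gper1, Pgr and Esrrb. Esr2, Greb1, Gper1 and Pgr overlapped there from each to the next.

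Genes of the wider pathway were read from 8 lists with 140 genes, of which 139 were found and 112 were tested. With limma, 0 of them passed an adjusted p of 0.05 (the smallest was 0.515), against 0.038% of all genes tested. At an unadjusted p of 0.05 or less, 2 were higher and 12 lower in SiglecXII samples, 12.5% of those tested against 8.87% of all genes. The median difference of the 112 genes was -0.209, against -0.15 over all genes tested. Without control 1, control 4 and SiglecXII 2 the median of all genes tested was -0.24. The list medians in that setting were -0.14 for estrogen-responsive genes, -0.61 for coregulators, -0.30 for chaperones, -0.53 for pioneer and partner factors, -0.13 for steroid enzymes, -0.33 for other steroid receptors, -0.33 for membrane signaling and -0.22 for genes of the estrogen-related receptors.

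Among 36 genes known to respond to estrogen in other tissues, 25 were tested, 8 had a difference above 0 and 17 below. Of all genes tested, 78.1% were below 0. After quantile normalization 13 of the 25 were above 0 and after median centring 15, where the median of all genes was 0.02 and 0.06. In the main fit their median was -0.14, against -0.15 over all genes tested. At an unadjusted p of 0.05 or less 2 were higher and 4 lower, against 1.19% higher and 7.67% lower of all genes tested. These 6 genes were 2 without the 3 samples rich in squamous markers and 3 without SiglecXII 3. The same settings took the count over all 13164 genes tested from 1167 to 777 and to 483. Stc2, a secreted glycoprotein, was at 1.78, 2.68, 2.26 and 2.87 TPM in controls and at 3.63, 2.97, 4.46 and 3.93 TPM in SiglecXII samples. It was the only list gene of these 25 that was higher in every SiglecXII sample than in every control, with a log2 difference of 0.48 (SE 0.159, limma adjusted p = 0.515), and 1.05% of all genes tested were apart in this direction.

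The proto-oncogene Myc was apart in the opposite direction, as 4.06% of all genes tested were, with 18.1 to 31.5 TPM in controls and 8.49 to 16.1 TPM in SiglecXII samples (log2 difference -0.98, limma adjusted p = 0.515). Car12, a carbonic anhydrase, averaged 5.64 TPM in controls and 2.42 TPM in SiglecXII samples, and the groups overlapped. Ltf, the iron-binding protein lactoferrin that estrogen induces in mouse uterus, stood at 112, 282, 12.6 and 250 TPM in controls 1 to 4 and at 20.1, 41.6, 12 and 10.1 TPM in SiglecXII samples 1 to 4. Its difference of -2.43 (limma adjusted p = 0.515) was the lowest of the list, and it was high in controls 1, 2 and 4 and, among SiglecXII samples, highest in sample 2. The genes with the highest levels were Krt19, a keratin of simple epithelium, at 3506 and 3289 TPM on average in controls and SiglecXII samples, and the lysosomal protease Ctsd at 302 and 247 TPM, neither past the test.

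The 22 coregulators that estrogen receptors recruit were all tested, and 0 passed at either an adjusted or an unadjusted p of 0.05, where 8.87% of all genes tested passed the latter. That count was 9 without SiglecXII 1, 3 without SiglecXII 2, 2 without control 1 and 4 without the 3 samples rich in squamous markers. Of all 13164 genes tested, 1167 passed the unadjusted p in the main fit, and 2365, 1571, 1113 and 777 in these settings in turn. All 22 differences were below 0, as were 78.1% of all genes tested, and their median was -0.35 against -0.15. After quantile normalization 1 was above 0 and after median centring 5. Relative to the median of all genes, that of the coregulators was -0.20 in the main fit. It was -0.19 after quantile normalization, -0.20 after median centring and -0.38 without the 3 samples rich in squamous markers. The most abundant were Phb2, a repressor, at 205 to 254 TPM in controls and 161 to 225 TPM in SiglecXII samples, and the RNA helicase Ddx5 at 196 to 263 and 139 to 259 TPM. Among 13 factors that hold the receptor ready for its ligand or take part in its turnover, 12 differences were below 0. There were 10 after quantile normalization and 6 after median centring. Over all genes tested, 78.1% were below 0 in the main fit. Hsp90aa1, the inducible form of HSP90, which also retains Cre-ERT in the cytoplasm, was at 79.0 to 85.2 TPM in controls and 37.4 to 68.6 TPM in SiglecXII samples, without overlap (log2 difference -0.58, limma adjusted p = 0.515). Hsp90ab1, the constitutive form, was also apart, at 707 to 778 and 381 to 702 TPM (log2 difference -0.46, limma adjusted p = 0.515), and was at -0.30 without SiglecXII 4. Of all genes tested, 4.06% were apart in this direction. The co-chaperone Stip1 differed by -0.30 (limma adjusted p = 0.515) and Hspa8, the constitutive HSP70, averaged 1028 and 900 TPM.

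All 12 tested pioneer and partner factors had a difference below 0 (10 after quantile normalization and 8 after median centring). The same held for 78.1% of all genes tested before such scaling. Runx1, a transcription factor of blood and epithelium, was apart at 4.63 to 7.61 TPM in controls and 2.26 to 4.09 TPM in SiglecXII samples (log2 difference -0.70, limma adjusted p = 0.515), as were 4.06% of all genes tested in this direction. Tfap2a, a factor of squamous and skin epithelium, differed by -0.90 (limma adjusted p = 0.515) and stood at 6.27 and 6.01 TPM in controls 1 and 4, 2.88 TPM in SiglecXII 2 and 0.741 to 2.39 TPM elsewhere. Without these 3 samples its difference was -0.48. The pioneer factors Foxa1 and Foxa2 averaged 37.7 and 39.0 TPM in controls and 33.0 and 30.3 TPM in SiglecXII samples. The Foxa1 difference was -0.19, and -0.56 without the same 3 samples.

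Of 18 enzymes of steroid synthesis and inactivation, 17 were found, 8 were tested and 0 passed at either limit (2 passed the unadjusted p without control 3, SiglecXII 1 or SiglecXII 2). Of all 13164 genes tested, 1211, 2365 and 1571 passed the unadjusted p in these settings in turn, against 1167 with all samples. Hsd17b2, which oxidizes estradiol to the weaker estrone, was high at 117 to 157 TPM in controls and 143 to 150 TPM in SiglecXII samples, and the sulfotransferase Sult1a1 averaged 257 and 191 TPM. The mineralocorticoid receptor Nr3c2 averaged 44.4 and 44.1 TPM and the glucocorticoid receptor Nr3c1 16.3 and 15.8 TPM, and neither passed the test. The Nr3c2 difference was -0.012, and -0.37 without the 3 samples rich in squamous markers. In membrane estrogen signaling, 12 of 13 genes were tested and all 12 differences were below 0, as were 78.1% of all genes tested. After quantile normalization 9 were below 0 and after median centring 6. Cav1, the caveolin that anchors receptors at the membrane, was at 9.93 to 15.7 TPM in controls and 7.67 to 11.2 TPM in SiglecXII samples (log2 difference -0.53, limma adjusted p = 0.515), and Gnas and Mapk3 averaged 522 and 375 TPM in controls and 468 and 348 TPM in SiglecXII samples.

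Coactivators and targets of the estrogen-related receptors numbered 20, of which 18 were tested. A difference above 0 was seen in 3 and below 0 in 15, against 78.1% below 0 of all genes tested. After quantile normalization 8 were above 0 and after median centring 14. Pprc1, a coactivator related to PGC-1α, differed by -0.75 (limma adjusted p = 0.515) and averaged 7.06 TPM in controls and 4.06 TPM in SiglecXII samples. The mitochondrial genes Atp5b and Cox5b, an ATP synthase and a cytochrome oxidase subunit, averaged 1360 and 656 TPM in controls and 1295 and 675 TPM in SiglecXII samples, and neither passed the test.

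**Figure D4:**
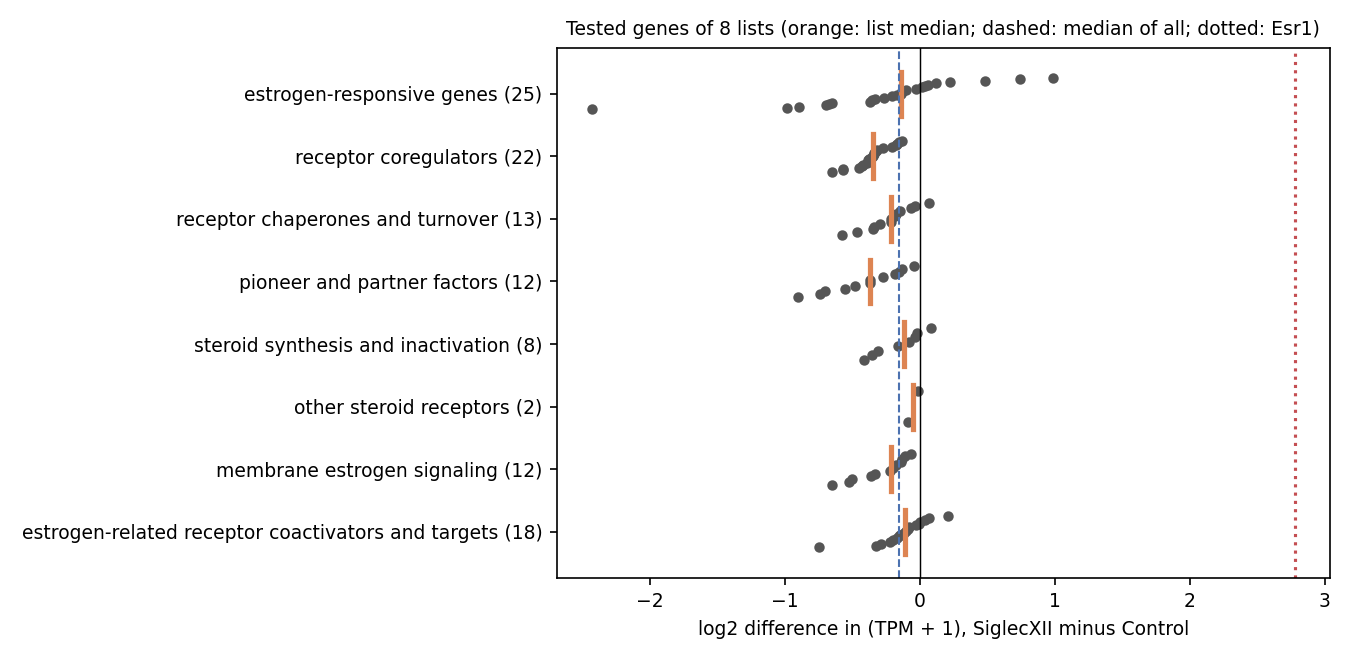
Log2 difference in TPM + 1, SiglecXII minus control (x axis), for each tested gene of 8 lists (y axis, number tested in brackets). Orange bars are list medians, the dashed line is the median of all 13164 genes tested (-0.15) and the dotted line is Esr1 (2.78). List genes lie between -2.43 (Ltf) and 0.99 (C3), and none reaches Esr1.

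The genes whose pattern was most like that of Esr1 were sought among all genes tested, by the root-mean-square distance over the 8 samples between log2(TPM + 1) values centered on each gene. Because Esr1 parts the groups, such genes part them too or nearly so, and the list describes these samples only. The nearest was the pseudogene Gm45063 at a distance of 0.41 log2 units, at 0 to 0.138 TPM in controls and 4.80 to 5.85 TPM in SiglecXII samples. It was followed by BC064078 (0.68), Gm44420 (0.73), Gm7336 (0.78) and BC035044 (0.83). BC064078 had 0.672 to 5.18 TPM in controls and 6.72 to 10.3 TPM in SiglecXII samples, with control 3 lowest as in Esr1. On GRCm38, 4 of the 5 lie on chromosome 6, Gm44420 from 128648576 to 128649065, BC035044 from 128849090 to 128891126, BC064078 from 128992952 to 129008040 and Gm45063 from 132462502 to 132462973. None of the 5 lies on chromosome 10 with Esr1, and none belongs to the members or the pathway lists. The share of all genes tested that lie on chromosome 6 was not computed. How these positions relate to that of the inserted SIGLEC12, which differs between the groups by design, was not tested. All 31-base windows of Gm7336 on chromosome 7 (100%) are shared with other genes, the most with Gapdh, so its value is uncertain.

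**Figure D5:**
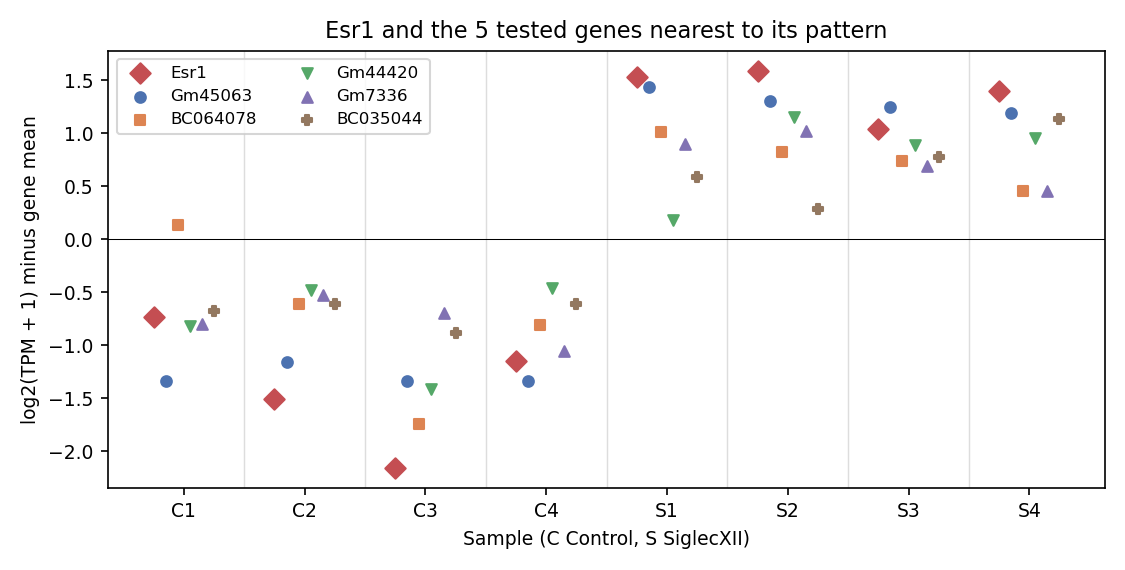
Log2(TPM + 1) minus the mean of the gene (y axis) in each control (C1 to C4) and SiglecXII sample (S1 to S4) for Esr1 (large diamonds) and the 5 tested genes nearest to its pattern. All 6 genes are above their mean in every SiglecXII sample, and BC064078 in control 1 is the only control value above a gene's mean.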

How the data were processed

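RNA-Seq of distal colon from 4 control and 4 SiglecXII samples was used, with groups taken from the sample labels. The authors deposited 1 value per gene and sample, log2(TPM + 1), made with kallisto (version 0.45.0 and build GRCm38 in the submitters' processing notes, whereas the Methods name a human reference). Row identifiers are those of mouse Ensembl genes, and GENCODE M21 holds 98.3% of them. The Methods also name gene counts and DESeq2, and counts were not used here. The labels name a stranded kit, and the strand setting of kallisto is not given in the sources used here.

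For a repeated symbol, the row of highest mean value was kept. Genes that reached 1 TPM in 4 or more samples were tested with limma 3.58.1 in R 4.3.3 (eBayes with trend, Benjamini-Hochberg adjustment), and members below this filter took their p from the same fit on all genes above 0 in at least 1 sample. The fit was tested on simulated data. Shared sequence was counted over windows of 31 bases of GENCODE M21 transcripts. Tables and figures used Python 3.11.15 with pandas 2.3.3 and matplotlib 3.10.9.

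Members and lists were chosen with earlier results of these data known. Named are the 8 members, from each pathway list up to 4 genes at the smallest unadjusted p within 0.05 and the 2 with the highest mean TPM, except 1 list gene that is not reported here, and the 5 genes nearest to Esr1. C3, the squamous and other markers and Vil1 were named after their values were seen. The alternatives were quantile normalization, median centring, a pseudocount of 0.1, repeated rows summed, no filter or a TPM of 5, the replicate number as a block, and samples left out.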

Additional observations from a re-analysis of the deposited data

Results flagged for a closer look

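In groups of 4 samples, a sample was marked where its gap to the nearest other exceeded Dixon's critical value, as a share of the range of the group. This held in 6 of 70 groups of the genes named here, where chance, flagging about 1 in 20, gives 3.5. Pgr in SiglecXII 2 (0.874 log2(TPM + 1), the other SiglecXII samples being at 0.05 or less) had a gap of 0.979 of the range, and this sample was the highest of its group in squamous epithelium markers. Greb1 in SiglecXII 1 (1.03 log2(TPM + 1)) had a gap of 0.883. Esrrb in control 3 and in SiglecXII 3 had a gap of 1, the other samples of both groups being listed at 0. Nr3c2 in control 1 (27.1 TPM, lowest) had a gap of 0.882 and Cox5b in SiglecXII 2 (626 TPM, lowest) a gap of 0.854.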

How the results depend on the processing

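The Esr1 difference of 2.78 lay between 2.52 and 3.20 over 14 alternatives (it was not computed with no filter or at a TPM of at least 5), and between 2.52 and 2.99 when single samples were left out. None of the 7 other members and 0 genes of each pathway list passed an adjusted p of 0.05 under any alternative, the smallest adjusted p of a named gene being 0.129 from limma. The Pgr difference of -0.98 was -2.22 with a pseudocount of 0.1. Esr2, Esrrg and the members below the filter have no value at a TPM of at least 5. The count of genes at adjusted p of 0.05 or less (5) was 3 with no filter, 3 at a TPM of at least 5 and 2 to 6 when single samples were left out (2 without SiglecXII 2 and 3 without SiglecXII 1 or SiglecXII 4). The count at unadjusted p (1167) was 2043 with no filter, 699 at a TPM of at least 5, 777 without control 1, control 4 and SiglecXII 2, and 483 to 2365 when single samples were left out (664 without control 4, 2365 without SiglecXII 1, 483 without SiglecXII 3 and 563 without SiglecXII 4). Of these genes 13.5% were higher in SiglecXII samples, against 63.3% after quantile normalization (704 higher, 408 lower) and 80% after median centring (1137 higher, 285 lower), which move the median of all genes from -0.15 to 0.02 and 0.06, so the excess of lower genes depends on the scaling.

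Direction turned in 10 of 35 named genes. With median centring the differences were 0.13 for Atp5b, 0.041 for Ddx5, 0.025 for Foxa1, 0.038 for Gnas, 0.11 for Krt19, 0.10 for Mapk3, 0.12 for Nr3c1, 0.20 for Nr3c2 and 0.038 for Phb2, and with quantile normalization 0.11 for both Nr3c1 and Nr3c2. With each sample left out, Atp5b ranged from -0.14 to 0.0049, Krt19 from -0.20 to 0.051, Nr3c1 from -0.25 to 0.055, Nr3c2 from -0.23 to 0.16 and Esrrb from -0.0031 to 0.0062. The cause was not tested.

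Same-numbered samples did not deviate together (correlation across genes of -0.16, -0.20, 0.10 and -0.0025 for numbers 1 to 4), and no sample correlated best with its own number, so the numbers were not read as pairs. With the replicate number as a block, 4 genes passed the adjusted p and 945 the unadjusted p, 0 of 7 other members passed, and the Esr1 difference was 2.78. TPM values hold no depth, so how far low members such as Gper1 and Esrrb are limited by reads is unknown.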
